A study of Mus musculus with 4 samples.

Results

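Simple keratin cells without Krt5 and Krt14 were the epithelial cells in 4 single-cell libraries of mouse breast tumours that carried Krt8, Krt18 or Krt19 RNA with little or none of the basal keratins. They were chosen by their raw UMI counts, a UMI being one counted RNA molecule: at least 5 UMIs of Krt8, Krt18 and Krt19 together, under 5 of Krt5 and Krt14 together, and none of Ptprc, Cd3d, Cd3e, Cd3g, Csf1r or Adgre1, genes of leukocytes. Cells first had to show 200 genes or more and less than 20% of UMIs from mitochondrial genes, which left 26435, and 176 of these met the rule, or 0.666%. The values of these 11 genes chose the cells and are given below as a description only.

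The cells came from orthotopic tumours of the mouse breast tumour line MT4788 grown in syngeneic FVB hosts of wild-type genotype, 1 tumour and 1 library per treatment. The combination library was from poly I:C with phenformin, the poly I:C library from poly I:C with PBS, the phenformin library from saline with phenformin, and the control library from saline with PBS. Poly I:C mimics viral double-stranded RNA and triggers TLR3 and cytosolic RNA sensors, while phenformin is a biguanide that inhibits mitochondrial complex I. All 4 tumours were dissociated on day 4 and enriched for CD45-positive cells on magnetic beads. The labels state that 10000 cells per condition were loaded and that over 90% lacked CD31 and EpCam and had CD45. The epithelial cells described here are therefore what passed that enrichment, and their number does not measure how many were in the tumour.

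The mammary epithelium has an inner luminal layer and an outer basal layer. Luminal cells, which line the lumen and include the milk-secreting alveolar cells, build their filaments from the simple keratins Krt8, Krt18 and Krt19. Basal or myoepithelial cells contain Krt5 and Krt14 and depend on the transcription factor p63 (Trp63), and mammary tumours can hold cells of either kind.

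The combination, poly I:C, phenformin and control libraries held 64, 29, 39 and 44 simple keratin cells, and a run of 4 values below stands for the combination, poly I:C, phenformin and control libraries unless other names are given. Basal keratin cells, defined by the same rule except for 5 or more UMIs of Krt5 and Krt14, numbered 347, 482, 168 and 307. No barcode of a simple keratin cell occurred among the filtered cells of another library. The simple keratin cells held 1512318, 850714, 1229936 and 903649 UMIs in total, with a median per cell of 20853, 23302, 29433 and 20054, against 26090, 27070, 31215 and 26148 in basal keratin cells and 5546, 7652, 7998 and 6089 in all other filtered cells. Scrublet, a doublet caller, marked 1, 1, 0 and 114 cells of the whole libraries and none of the simple keratin cells; at so few calls in the first 3 libraries it cannot be relied on there.

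As a share of filtered cells, simple keratin cells made up 0.774% in the combination library (exact binomial 95% interval 0.597 to 0.987), 0.438% in the poly I:C library (0.294 to 0.629), 0.715% in the phenformin library (0.509 to 0.976) and 0.722% in the control library (0.525 to 0.968). All 4 intervals overlapped. As a share of simple plus basal keratin cells they made up 15.6% (12.2 to 19.4), 5.68% (3.83 to 8.05), 18.8% (13.8 to 24.8) and 12.5% (9.26 to 16.5). Here the interval of the poly I:C library lay below those of the other 3. The intervals cover counting error only: with 1 library per treatment, the treatment, the animal and the bead enrichment cannot be told apart, and no test between treatments was made.

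**Figure D1:**
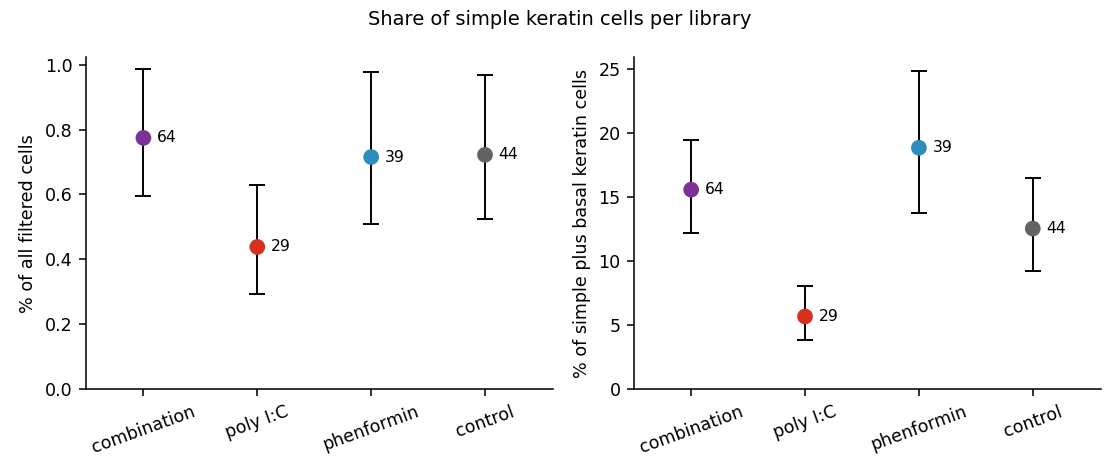
Share of simple keratin cells in each library, in percent of all filtered cells (left) and of simple plus basal keratin cells (right); bars are exact binomial 95% intervals and the printed numbers are the cells counted. On the right the poly I:C library lies at 5.68%, below the other 3 at 12.5% to 18.8%.

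Within the rule's own genes, Krt8 stood at 2149.7, 1799.7, 1718 and 2006 CPM (combination, poly I:C, phenformin, control), the counts scaled to a library sum of 1000000 UMIs, and Krt18 at 2073, 1706, 1553 and 1457 CPM. Krt19 was seen in only 5, 1, 1 and 1 cells, so the cells were Krt8 and Krt18 cells nearly throughout. Krt5 and Krt14 were both at 0 in 43, 16, 22 and 24 of the cells, 105 in all. Of the cells nearest the limit, 2, 2, 1 and 6 had exactly 4 UMIs of Krt5 and Krt14 and were counted as simple, while 7, 4, 3 and 2 had exactly 5 and were counted as basal. Most cells with basal keratin lay far above it, since 255, 382, 121 and 219 had 50 UMIs or more. At the lower limit of the simple keratins, 1, 2, 0 and 1 cells had exactly 5 UMIs, and 1, 1, 0 and 2 that were otherwise alike had 4.

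The markers fit an epithelial identity. Epcam, an epithelial adhesion molecule that the rule did not use, had a UMI in 62, 28, 37 and 44 of the cells (combination, poly I:C, phenformin, control), 171 of 176, and stood at 1795, 1810.2, 1671 and 1758 CPM, against 114, 128, 72.6 and 141 CPM in the remaining filtered cells. Of 7 fibroblast and 5 endothelial markers, the fibroblast genes Col1a2, Lum and Pdgfrb and the endothelial genes Kdr, Cldn5 and Emcn had no UMI in any library. Levels of the others are not given here. The 4 neutrophil markers summed to 18.5, 71.7, 26.8 and 17.7 CPM. Among them Retnlg was at 0, while S100a8, a secreted calcium-binding protein, gave most of the sum and was higher in simple than in basal keratin cells (log2 difference 2.42, SE 0.40, edgeR adjusted p = 2.6e-04). The 8 macrophage markers summed to 120.3, 119, 69.1 and 71.9 CPM; Apoe, an abundant macrophage transcript, led at 49.6, 55.2, 26.8 and 22.1 CPM, against 4434, 7189, 2467 and 1132 CPM in the remaining cells. The 5 pan-leukocyte markers summed to 34.4, 29.4, 18.7 and 36.5 CPM. More than 2 UMIs of 9 leukocyte genes (Tyrobp, Fcer1g, Laptm5, Coro1a, Cd52, Lyz2, C1qa, C1qb, C1qc) were found in 21, 8, 10 and 9 of the cells. The rule left out cells with UMIs of other leukocyte genes, so low leukocyte sums follow in part from it. Both macrophage sums of the poly I:C-treated libraries were above those of the other 2 libraries, and their part in the treatment results below was not tested. No transcript used here marks the implanted line, so tumour cells and host mammary epithelium cannot be told apart.

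Compared with basal keratin cells of the same tumours, the simple keratin cells carried a luminal and secretory set of transcripts and had lower levels of the basal and mesenchymal ones. Counts were summed per library and kind of cell and compared with edgeR's quasi-likelihood test with the library as a block, the only comparison with more than 1 library on each side. Of 10937 genes tested, 1583 were higher in simple keratin cells (14.5%) and 1848 lower (16.9%) at an adjusted p under 0.05; 3229 of the 3431 had the same direction in all 4 libraries. More than 2-fold differences were found for 615 higher and 845 lower genes. The cells were split on Krt5 and Krt14 themselves, so genes that accompany those keratins had to differ; the test shows how steady each difference was over the 4 libraries.

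Of the luminal mammary genes, 20 of 28 tested members were higher and 5 lower, with a median log2 difference of 2.06, beside -0.01 over all genes tested. Elf5, a transcription factor of milk-secreting alveolar cells, had 65.5, 69.4, 61.8 and 61.97 CPM (combination, poly I:C, phenformin, control) in simple keratin cells and 5.29, 2.16, 4.18 and 3.07 CPM in basal keratin cells (log2 difference 4.13, SE 0.21, edgeR adjusted p = 1.0e-09). It lies on the plus strand at chr2:103411688-103450989 (GRCm38, GENCODE vM21). The ranges did not overlap, and the simple keratin cells of the 4 tumours differed little from each other. Kit, a growth factor receptor of luminal progenitors, had 48.3, 49.4, 48.8 and 70.8 CPM in simple and 2.75, 1.22, 3.09 and 2.24 CPM in basal keratin cells (log2 difference 4.54, SE 0.23, edgeR adjusted p = 1.2e-09). The prolactin receptor Prlr was higher by 2.77 ± 0.18 (log2 difference ± SE, here and below), the epithelial transcription factors Foxa1, Ehf and Gata3 by 2.03 ± 0.17, 2.08 ± 0.09 and 1.27 ± 0.15, and transferrin (Trf) by 3.05 ± 0.16. The milk casein gene Csn3 was higher by 5.44 ± 0.48, but its levels in simple keratin cells were 661, 175, 67.5 and 112 CPM and came from 15, 4, 8 and 4 cells.

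Of the luminal genes, 5 were lower instead. Krt7, a keratin of ducts and glands, had 304, 281, 159 and 148 CPM (combination, poly I:C, phenformin, control) in simple and 589, 562, 760.3 and 575 CPM in basal keratin cells (log2 difference -1.54, SE 0.16, edgeR adjusted p = 3.6e-06). The EGF receptor ligand Areg was lower, at -1.76 ± 0.14 and the progenitor transcription factor Sox9 at -0.44 ± 0.06, as were the receptor Fgfr2 (-1.04 ± 0.27) and the surface protein Ly6d (-0.54 ± 0.07).

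Tight junctions seal the space between cells that face a lumen. Of the junction and adhesion genes, 21 of 37 tested members were higher and 6 lower, with a median log2 difference of 0.48. Cldn7, a tight junction protein, had 224, 236, 243 and 210.3 CPM (combination, poly I:C, phenformin, control) in simple and 35.7, 21.4, 25.7 and 26.7 CPM in basal keratin cells (log2 difference 3.03, SE 0.12, edgeR adjusted p = 1.3e-10). Tjp3 and Ocln, which code for a scaffold and a membrane protein of the same junctions, were higher by 4.65 ± 0.35 and 3.04 ± 0.34, Cldn3 by 2.38 ± 0.22, and E-cadherin (Cdh1) by 0.87 ± 0.08. P-cadherin (Cdh3), the cadherin of basal cells, was lower, at -2.66 ± 0.20, and the desmosomal plakin Dsp at -1.01 ± 0.08. Epcam was nearly level, higher by 0.23 ± 0.06, and without the control library its difference of 0.14 did not pass.

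Basal and mesenchymal genes were low. Of the basal or myoepithelial genes, 1 of 22 tested members were higher and 19 lower, with a median log2 difference of -2.81; of the mesenchymal transition genes, 1 of 31 tested members were higher and 25 lower, with a median log2 difference of -1.69. Trp63 had 5.29, 4.70, 3.25 and 5.53 CPM (combination, poly I:C, phenformin, control) in simple and 75.98, 67.2, 71.3 and 105 CPM in basal keratin cells (log2 difference -4.11, SE 0.18, edgeR adjusted p = 3.3e-10), and Col17a1, a hemidesmosome collagen, had 1.32, 5.88, 6.50 and 5.53 against 191, 205, 239 and 285 CPM (log2 difference -5.69, SE 0.18, edgeR adjusted p = 1.6e-11). Krt17 differed by -4.74 ± 0.13. The levels of Trp63 and Col17a1 in the 2 kinds of cell did not overlap in any library. Krt15, another keratin of stratified epithelia, was the 1 basal gene that went the other way, higher by 3.19 ± 0.39. Snai2, a repressor of epithelial genes, was lower, at -4.24 ± 0.25, the matrix glycoprotein Sparc at -4.79 ± 0.20 and vimentin (Vim), which simple keratin cells still held at 854, 1192, 746 and 1051 CPM, at -1.60 ± 0.08. Of the proteases and matrix genes, 2 of 18 tested members were higher and 14 lower, with a median log2 difference of -1.85: tenascin C (Tnc) differed by -2.63 ± 0.17 and the protease inhibitor Timp1 at -4.01 ± 0.23, while the membrane protease Mmp15 was higher by 3.09 ± 0.46.

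Some genes of basal keratin cells had no UMI at all in the 176 simple keratin cells. Krt42, a keratin, stood at 34.3 CPM over all basal keratin cells and was at least 51.3-fold lower in simple keratin cells, the bound being set by 3 UMIs over the group. Neuronal tubulin Tubb3 was at least 40.9-fold lower and the growth cone protein Gap43 at least 22.3-fold lower on the same bound. In the other direction the mucin-like secreted gene Smgc had no UMI in basal keratin cells and was at least 326-fold higher in simple keratin cells, but 67.4 CPM of it in the combination library against 1.11 CPM in the control library came from 6 cells in all 4 libraries.

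**Figure D2:**
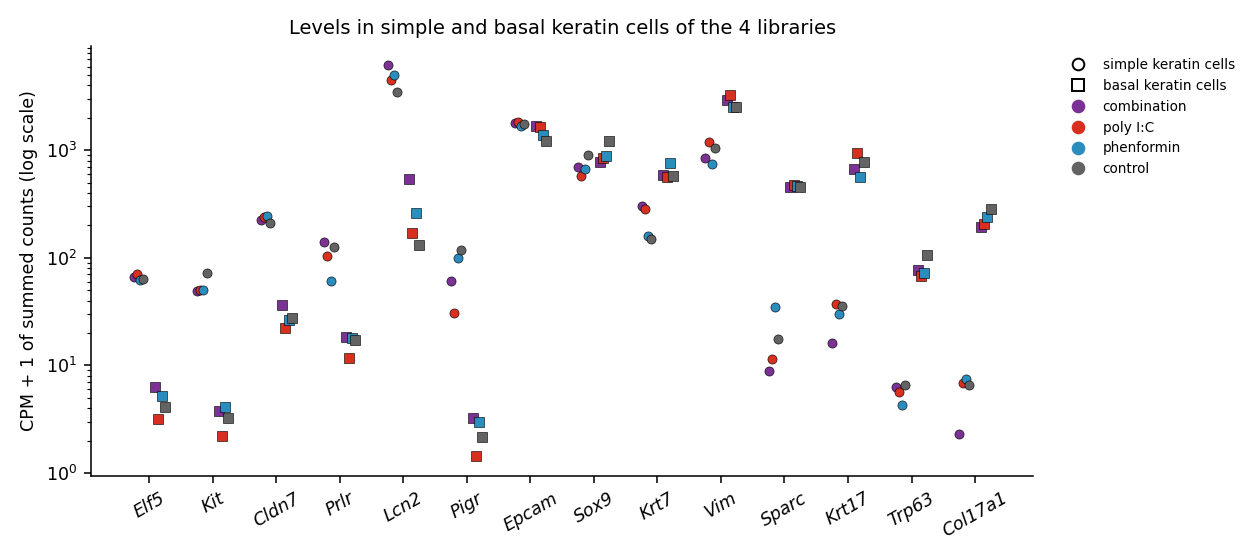
Levels of 14 genes in simple keratin cells (circles, left of each pair) and basal keratin cells (squares), as CPM plus 1 of the summed counts on a log axis, 1 point per library. Luminal and junction genes from Elf5 to Pigr lie higher in simple keratin cells in all 4 libraries, Epcam is nearly level, and genes from Sox9 to Col17a1 lie lower.

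Many genes of secreted defence proteins were higher. Of the acute phase and antimicrobial genes, 9 of 14 tested members were higher and 0 lower, with a median log2 difference of 2.40. Lcn2, an iron-binding protein of mucosal defence, had 6132, 4532, 4993 and 3449 CPM (combination, poly I:C, phenformin, control) in simple and 534, 170.0, 260.0 and 129.7 CPM in basal keratin cells (log2 difference 4.27, SE 0.16, edgeR adjusted p = 6.0e-11). Wfdc18 and Slpi, which belong to the whey acidic protein family, were higher by 3.50 ± 0.12 and 2.64 ± 0.19, the peptidoglycan-binding Pglyrp1 by 4.29 ± 0.17, lactoferrin (Ltf) by 4.29 ± 0.28, the endotoxin co-receptor Cd14 by 3.42 ± 0.13 and complement C3 by 1.64 ± 0.15. Ltf had UMIs in only 6, 3, 8 and 5 simple keratin cells, and 1 cell per library held 91.9%, 95.2%, 70.5% and 56.6% of them. For Slpi 1 cell per library held 73.2%, 52.1%, 75.1% and 71.4%, and for Pglyrp1 1 cell held 79.3% in the poly I:C library. Pigr, which carries IgA across epithelia into secretions, had 60.2, 29.4, 98.4 and 117 CPM in simple and 2.22, 0.432, 2.001 and 1.18 CPM in basal keratin cells (log2 difference 5.61, SE 0.24, edgeR adjusted p = 2.0e-10). Ferritin heavy chain (Fth1), which stores iron, had 10922, 9564, 10385 and 7049 CPM in simple and 3980.4, 3197, 3229.6 and 2500.3 CPM in basal keratin cells (log2 difference 1.52, SE 0.04, edgeR adjusted p = 7.1e-12).

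Interferon-inducible genes were also higher in simple than in basal keratin cells. Of the type I interferon genes, 38 of 53 tested members were higher and 0 lower, with a median log2 difference of 0.71; of the interferon gamma genes, 19 of 28 tested members were higher and 3 lower, with a median log2 difference of 0.80. Examples were Ifi27l2a at 1.75 ± 0.07, the guanylate-binding protein Gbp8 at 1.55 ± 0.13 and Gbp3 at 1.01 ± 0.08, while Socs1, a feedback inhibitor of cytokine signalling, was lower, at -1.21 ± 0.17. Of the MHC class I presentation genes, 14 of 23 tested members were higher and 3 lower, with a median log2 difference of 0.32, with the immunoproteasome subunit Psmb8 at 0.50 ± 0.05 and the peptide transporter Tap1 at 0.53 ± 0.09.

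Some sensors of double-stranded RNA, the kind of molecule that poly I:C mimics, were higher in simple keratin cells. Of the double-stranded RNA sensing genes, 6 of 17 tested members were higher and 0 lower, with a median log2 difference of 0.27, so most did not pass. Tlr3, the endosomal receptor, had 17.2, 18.8, 19.5 and 32.1 CPM (combination, poly I:C, phenformin, control) in simple and 6.35, 9.50, 12.01 and 15.3 CPM in basal keratin cells (log2 difference 1.01, SE 0.19, edgeR adjusted p = 8.4e-04). The cytosolic sensor Ifih1 (MDA5) was higher by 1.03 ± 0.17, its regulator Dhx58 by 1.17 ± 0.19, and the RNA-activated kinase Eif2ak2 by 0.69 ± 0.10.

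Respiratory chain genes were higher by a small amount. Of the nuclear complex I genes, 28 of 37 tested members were higher and 0 lower, with a median log2 difference of 0.33; of the nuclear genes of complexes II to V, 37 of 39 tested members were higher and 0 lower, with a median log2 difference of 0.45; and of the mitochondrially encoded genes, 13 of 13 tested members were higher and 0 lower, with a median log2 difference of 0.51. Ndufb7, a complex I subunit, had 341, 310.3, 311 and 307 CPM (combination, poly I:C, phenformin, control) in simple and 219.8, 205, 189.9 and 165 CPM in basal keratin cells (log2 difference 0.67, SE 0.07, edgeR adjusted p = 6.0e-06), and mt-Co1, a complex IV subunit, was higher by 0.77 ± 0.05. Mitochondrial UMIs were limited by the cell filter in both kinds of cell. Of the glycolysis genes, 5 of 19 tested members were higher and 9 lower, with a median log2 difference of -0.18, and of the hypoxia genes, 5 of 27 tested members were higher and 11 lower, with a median log2 difference of -0.34.

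DNA replication genes were lower in simple keratin cells and mitosis genes were not: of the G1/S genes, 0 of 34 tested members were higher and 19 lower, with a median log2 difference of -0.60, and of the G2/M genes, 6 of 35 tested members were higher and 2 lower, with a median log2 difference of 0.16. The replication helicase subunit Mcm3 was lower, at -1.06 ± 0.14 and the cell cycle transcription factor E2f8 at -1.93 ± 0.22. Mki67, a marker of cycling cells, was higher by 0.31 ± 0.10, but its log2 difference was -0.47 when only cells with no Krt5 or Krt14 were set against those with 10 UMIs or more.

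Signalling genes divided between the 2 kinds of cell. Of the EGF receptor family and ligands, 3 of 13 tested members were higher and 8 lower, with a median log2 difference of -0.80: the receptor Erbb3 was higher by 2.09 ± 0.26 and the ligand Btc by 2.56 ± 0.56, while the ligands Ereg and Hbegf were lower, at -2.65 ± 0.16 and -1.82 ± 0.18. Of the chemokines and cytokines, 10 of 31 tested members were higher and 10 lower, with a median log2 difference of -0.01. The chemokine Cxcl15 was higher by 5.77 ± 0.54, the granulocyte growth factor Csf3 by 2.41 ± 0.11 and Tnf by 2.29 ± 0.26; Csf3 had 181, 146, 101 and 106 CPM (combination, poly I:C, phenformin, control) in simple and 37.5, 29.02, 16.6 and 16.05 CPM in basal keratin cells. The monocyte chemokine Ccl2 was lower, at -2.74 ± 0.43, the platelet growth factor Pdgfb at -2.96 ± 0.36 and the prostaglandin synthase Ptgs2 at -4.51 ± 0.20. Notch3, fixed here as a pericyte marker and also a receptor of luminal cells, had 21.2, 11.8, 18.7 and 32.1 CPM in simple keratin cells, while the other pericyte genes were at 0 or, for Rgs5, at 1 UMI in the combination library.

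When all keratin cells were clustered together, 152 of the 176 simple keratin cells fell in 1 of 7 clusters, which also held 92 cells counted as basal. That cluster was led by Lcn2, Wfdc18, Chchd10, Wfdc12 and Wfdc3, and its median Krt5 and Krt14 count was 1 UMI. The rule thus cut through a single cluster for part of its cells.

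The simple keratin cells were not uniform. Clustered on their own they formed 4 subclusters, described here by their leading genes with no test. Subcluster 1 held 78 cells and was led by Slpi, the hypoxia gene Ndrg1, osteopontin (Spp1), fibronectin (Fn1), Igfbp5 and the angiogenic factor Vegfa; Ndrg1 stood at 330.2 CPM there and 36.8 CPM in the other simple keratin cells. Subcluster 2 held 54 cells and was led by Itln1, a lectin, the oestrogen receptor cofactor Cited1, Fam25c, Krt6a, Phyh and Mgp. Subcluster 3 held 36 cells and was led by the division genes Birc5, Top2a, Ube2c, Mki67, Cdk1 and Cenpf, with Birc5 at 1265 CPM against 26.5 CPM in the others. Subcluster 4 held 8 cells and was led by Rbp7, Gmfg, Lgals1, Etfb, Krt14 and Lyz2, of which Gmfg and Lyz2 are best known from leukocytes; Lyz2 had a UMI in 50% of these cells and stood at 81.5 CPM, against 13.7 CPM in the others. These cells had a low depth, with a median of 5813 UMIs against 20443, 23753 and 34470 in the first 3.

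The gene lists differed between subclusters on the summed CPM scale. Hypoxia genes summed to 3133 CPM in subcluster 1, against 1380 and 1258 CPM in subclusters 2 and 3. Type I interferon genes summed to 11515 CPM in subcluster 2, against 7236 and 9286 CPM in subclusters 1 and 3. Mitosis genes summed to 8522 CPM in subcluster 3, against 496 and 401 CPM in subclusters 1 and 2. Luminal mammary genes varied less, at 15403, 15972, 11664 and 13878 CPM in subclusters 1 to 4.

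Composition by library differed most for subcluster 2. It held 18, 3, 12 and 21 cells (combination, poly I:C, phenformin, control), or 28.1%, 10.3%, 30.8% and 47.7% of the simple keratin cells of the combination, poly I:C, phenformin and control libraries. Subcluster 1 took 48.4%, 58.6%, 41.0% and 31.8% of them, and the dividing subcluster 3 took 18.8%, 24.1%, 25.6% and 15.9%. Some of the genes that define the subclusters also differed between libraries, so these shares are a description of the same differences that follow.

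**Figure D3:**
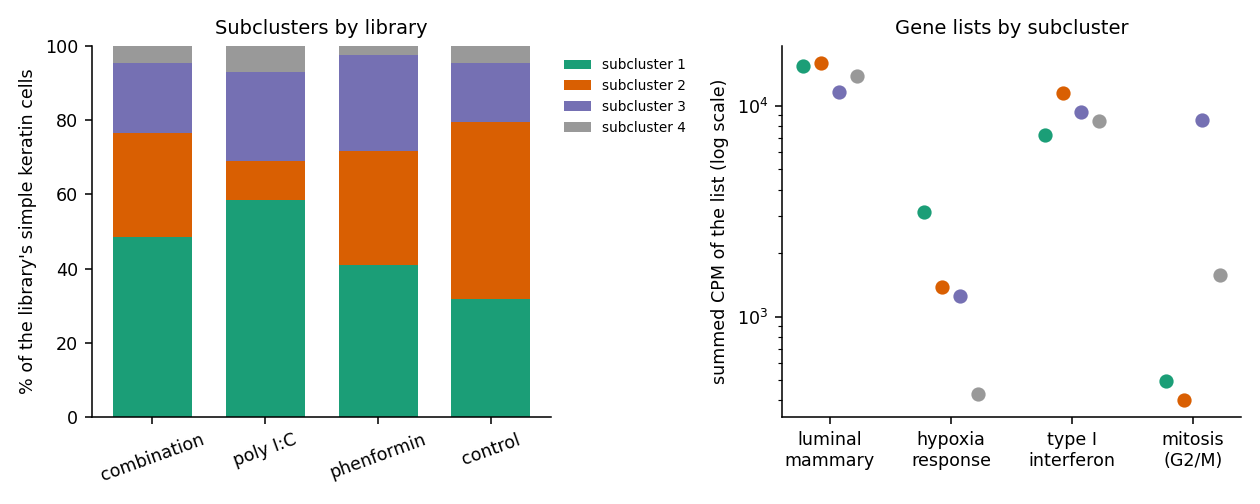
Left, percent of each library's simple keratin cells in subclusters 1 to 4; right, summed CPM of 4 gene lists in each subcluster on a log axis. Subcluster 2 takes 10.3% of the poly I:C library and 47.7% of the control library, and mitosis genes reach 8522 CPM in subcluster 3, against 401 to 1569 CPM in the others.

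Between treatments, the median interferon-inducible gene was lower and the chemokine genes Cxcl1 and Cxcl2 higher in both poly I:C-treated libraries than in the control library, Mt1 was higher in all 3 treated libraries, and few genes followed phenformin. Treatments were compared on the summed counts of 29 to 64 cells, without a test. A gene was called higher or lower where the levels differed at least 2-fold, the 95% counting interval of the ratio left out 1, and the higher library had at least 50 CPM and 30 UMIs. Combination over control gave 42 genes higher (1.34% of 3146 compared) and 97 lower (3.08%); poly I:C over control gave 59 higher (1.87% of 3155) and 203 lower (6.43%); and phenformin over control gave 28 higher (0.897% of 3123) and 44 lower (1.41%). Combination over poly I:C gave 38 higher (1.32% of 2874) and 39 lower (1.36%), and combination over phenformin gave 26 higher (0.883% of 2946) and 32 lower (1.09%). With TMM scaling in place of the plain total the splits were 75 higher and 62 lower, 113 and 81, 42 and 16, 28 and 47, and 28 and 28 in the same order. That scaling moved the median log2 ratio of all genes to 0.15, 0.17 and 0.10 in the 3 comparisons with control, where the plain total gave -0.02, -0.07 and -0.03. Thinning every cell to 2000 UMIs left 14 to 39 calls per comparison, among only 346 to 538 genes compared. The thinned sums held 124000, 58000, 76000 and 84000 UMIs, so thinned ratios of genes at low CPM rest on few UMIs. The 3 comparisons with control share the control library. By the same rule the more numerous basal keratin cells gave fewer calls. Combination over control gave 6 higher and 21 lower of 3079 compared, and poly I:C over control gave 5 and 19 of 3061. Phenformin over control gave 1 and 1 of 3005. Combination over poly I:C gave 3 and 3 of 2764, and combination over phenformin 6 and 3 of 2896. Why they gave fewer was not tested.

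Over all simple keratin cells, the median interferon-inducible gene stood below the control level in each library that had received poly I:C, but not within every subcluster. Type I interferon genes gave 0 higher and 5 lower of 37 compared, median -0.40 log2 for combination over control, 0 higher and 9 lower of 37 compared, median -0.42 for poly I:C over control and 1 higher and 1 lower of 38 compared, median -0.10 for phenformin over control, the median being over members with at least 20 CPM in a library. In basal keratin cells of the same libraries the medians were -0.54, -0.45 and -0.09. Combination over phenformin, a pair that shares no library with poly I:C over control, gave 0 higher and 2 lower of 32 compared, median -0.33, and -0.40 in basal keratin cells. Per cell, the median summed level of the list was 7278, 6654, 10023 and 8925 CPM (combination, poly I:C, phenformin, control) in simple keratin cells and 5363, 5178, 5788 and 5752 CPM in basal keratin cells of the combination, poly I:C, phenformin and control libraries. Within subcluster 1 the list summed to 7029, 8355, 6252 and 7196 CPM in these libraries, so the poly I:C library was above the control library. Within subcluster 2 it summed to 11283, 7440.2, 13867 and 10417 CPM, where the combination library was above the control library, and within subcluster 3 to 8801, 6891, 10785 and 10638 CPM, where both were below it. The poly I:C library had only 3 cells in subcluster 2, where the list was highest, against 21 in the control library.

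The interferon gamma genes gave 0 higher and 6 lower of 16 compared, median -0.78 for combination over control, 1 higher and 2 lower of 16 compared, median -0.52 for poly I:C over control, 0 higher and 0 lower of 16 compared, median -0.29 for phenformin over control and 0 higher and 2 lower of 15 compared, median -0.48 for combination over phenformin. Under each alternative setting tried, the type I median of poly I:C over control and the interferon gamma median of combination over control stayed below 0. The interferon gamma median of poly I:C over control was weaker with TMM scaling, at -0.33, and with cells thinned to 2000 UMIs, at -0.43. The medians in basal keratin cells were -0.73, -0.39, -0.19 and -0.54. The summed level of the list did not follow the median of its genes, at 4307, 6719, 5495 and 6535 CPM (combination, poly I:C, phenformin, control). One member, the T cell chemokine Cxcl9, had 762, 2305, 644 and 692 CPM, and 46.9% of its UMIs in the poly I:C library were in 1 cell; without the 5 deepest cells of each library its log2 ratio of poly I:C over control was -0.34. Leaving Cxcl9 out, the list summed to 3545, 4414, 4851 and 5843 CPM, lowest in the combination library and highest in the control library.

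Members with UMIs in many cells showed the same order. Irgm2, an interferon-inducible GTPase of cell-autonomous defence, had 50.9, 56.4, 96.8 and 159 CPM (combination, poly I:C, phenformin, control) in 29, 18, 30 and 33 cells, a ratio of 0.32 (95% interval 0.239 to 0.424) for combination over control and 0.354 (95% interval 0.25 to 0.494) for poly I:C over control. It lies on the plus strand at chr11:58199618-58222782. Its levels in basal keratin cells were 25.5, 33.4, 51.9 and 77.6 CPM, in the same order of libraries. Parp9, which pairs with the ubiquitin ligase Dtx3l, had 86.6, 75.2, 124 and 178 CPM and ratios of 0.486 (95% interval 0.383 to 0.616) and 0.422 (95% interval 0.311 to 0.567); with TMM scaling the first was -0.86 on the log2 scale and no longer 2-fold. Dtx3l had 78.03, 81.1, 118 and 164 CPM, and its ratio of poly I:C over control was 0.495 (95% interval 0.367 to 0.663). Thinning every cell to 2000 UMIs brought that log2 ratio to 0.05, from few UMIs. Both poly I:C-treated libraries were below both others for Irgm2, Parp9 and Dtx3l. Not every widely detected interferon-inducible gene did this. Ifi27l2a had 847, 525, 1079 and 803 CPM in 57, 26, 33 and 36 cells, so the combination library was above the control library.

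Ifit2, an antiviral RNA-binding protein, had 13.2, 4.70, 42.3 and 79.7 CPM (combination, poly I:C, phenformin, control); only 1 cell of the poly I:C library had it, while 48.6% of its UMIs in the control library were in 1 cell. Gbp4 and Gbp8, guanylate-binding proteins, had ratios of 0.412 (95% interval 0.333 to 0.508) and 0.373 (95% interval 0.271 to 0.509) for combination over control. Nlrc5, the activator of MHC class I genes, was lower in all 3 treated libraries, with 29.8, 34.1, 26.8 and 80.8 CPM, whereas of 21 MHC class I presentation genes compared between combination and control, none was called higher and 1 was called lower. Pkp1, a desmosome plaque protein, had the same pattern as Nlrc5, with 37.03, 42.3, 38.2 and 101 CPM. Nlrc5 and Pkp1 were highest in the control library, and their 3 treated libraries lay close together.

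**Figure D4:**
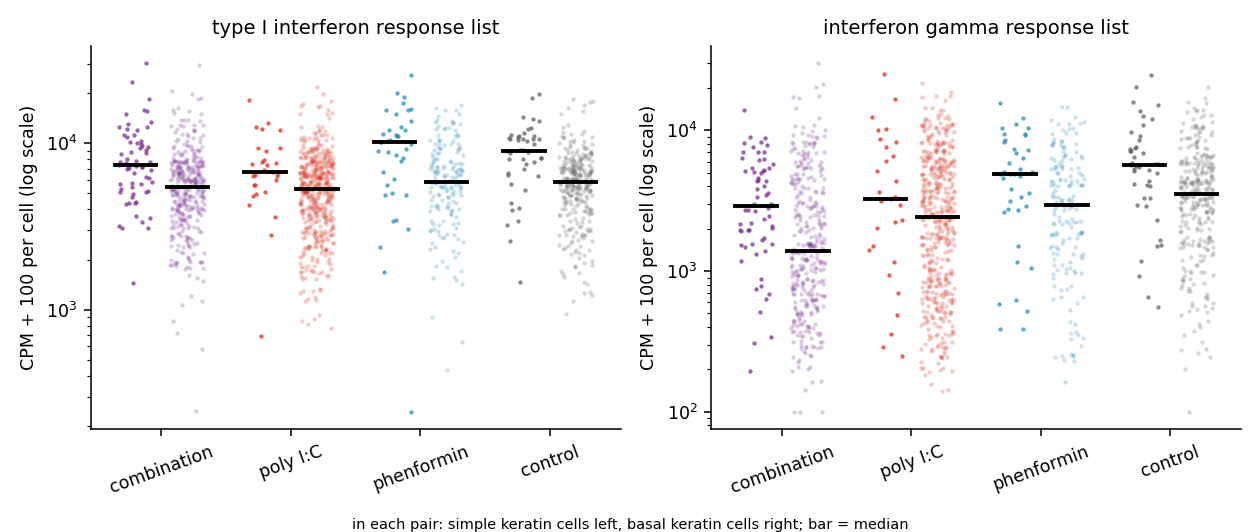
Summed CPM plus 100 of the type I interferon list (left) and the interferon gamma list (right) in every cell, on a log axis; in each library simple keratin cells are left and basal keratin cells right, and bars are medians. The median of simple keratin cells lies above that of basal keratin cells in all 4 libraries for both lists, and both poly I:C-treated libraries lie below the control library.

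Genes that differed in the same direction with poly I:C on both backgrounds were few. Of 2797 genes compared in both poly I:C over control and combination over phenformin, 41 and 14 were higher, with 5 in common, and 109 and 27 were lower, with 7 in common. The 5 higher were the neutrophil chemokines Cxcl1 and Cxcl2, the activin subunit Inhba, the growth factor Ptn and the membrane protein Basp1. The 7 lower were C3, Gbp5, the matrix protease Adamts1, the lipoxygenase Alox12e, the channel-associated Tcaf2, fibronectin and the immediate early factor Fosb.

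Cxcl1 had 244, 214, 102 and 58.7 CPM in 30, 20, 11 and 13 cells of the combination, poly I:C, phenformin and control libraries, so both poly I:C-treated libraries were above both others. The ratio was 3.65 (95% interval 2.67 to 5.05) for poly I:C over control and 2.40 (95% interval 1.95 to 2.96) for combination over phenformin, and basal keratin cells had 212, 163, 103 and 111 CPM. Cxcl2 had 200.3, 102, 52.03 and 18.8 CPM, with ratios of 5.44 (95% interval 3.21 to 9.75) and 3.85 (95% interval 2.93 to 5.12), but from 12, 7, 10 and 3 cells, of which a single one gave 60.7%, 55.2%, 76.6% and 70.6% of the UMIs. In basal keratin cells Cxcl2 had 55.2, 37.4, 18.9 and 46.0 CPM, so there the poly I:C library was below the control library. The calls of Cxcl1 and Cxcl2 in simple keratin cells depended in part on the keratin limit. Among the 105 cells with no Krt5 or Krt14, the log2 ratio of Cxcl1 was 0.82 for poly I:C over control and 0.68 for combination over phenformin, neither called, and that of Cxcl2 was 0.07 for combination over phenformin, not called, and 3.47 for poly I:C over control, still called. In the poly I:C library 94.3% of Ptn UMIs and 59.2% of Inhba UMIs were in 1 cell, and among the cells with no Krt5 or Krt14 the log2 ratios of poly I:C over control were -0.41 for Ptn and -0.71 for Inhba. Basp1 had 141, 121, 68.3 and 59.8 CPM, and its call for combination over phenformin held under only 5 of 12 alternative settings. Thinning to 2000 UMIs brought that log2 ratio to -0.81, from few UMIs.

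Among the lower genes, Adamts1 had 108, 101, 262 and 395 CPM (combination, poly I:C, phenformin, control), with ratios of 0.256 (95% interval 0.2 to 0.325) for poly I:C over control and 0.412 (95% interval 0.339 to 0.499) for combination over phenformin. Alox12e had 41.7, 36.4, 167 and 191 CPM and ratios of 0.19 (95% interval 0.125 to 0.28) and 0.249 (95% interval 0.184 to 0.331), and C3 had 48.3, 54.1, 123 and 145 CPM and ratios of 0.373 (95% interval 0.261 to 0.526) and 0.393 (95% interval 0.293 to 0.523). Gbp5 had 28.4, 34.1, 66.7 and 76.4 CPM and ratios of 0.446 (95% interval 0.279 to 0.698) and 0.426 (95% interval 0.288 to 0.624). In each case both poly I:C-treated libraries were below both others. With means over cells the log2 ratio of Adamts1 for combination over phenformin was -0.81 and no longer 2-fold. In basal keratin cells Adamts1 had 299, 273, 305 and 520 CPM, so there the combination and phenformin libraries lay close together. Alox12e had 59.9, 30.7, 114 and 89.1 CPM in basal keratin cells, C3 20.5, 11.8, 30.6 and 54.05 CPM and Gbp5 18.5, 18.9, 21.1 and 22.7 CPM. Without the 5 deepest cells of each library the log2 ratio of Gbp5 for combination over phenformin was -0.97 and no longer called, and TMM scaling brought that for poly I:C over control to -0.87. Fosb had 102, 52.9, 211 and 107 CPM, and its log2 ratio of poly I:C over control was 0.54 among cells with no Krt5 or Krt14. Fibronectin (Fn1) had 44.3, 52.9, 109 and 108 CPM in 11, 4, 11 and 11 cells, and 1 cell held 73.3% of its poly I:C UMIs and 50% of its control UMIs. Without the 5 deepest cells of each library its log2 ratio of poly I:C over control was -0.46 and not called.

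The promoters of Cxcl1 and Cxcl2, which were higher, and of Gbp5, which was lower, are shown because these genes are known targets of the NF-kB and interferon pathways that poly I:C engages. The sequences are the 250 bases before the transcription start in RefSeq, build GRCm38.p6, read 5′ to 3′ on the plus strand, at chr5:90890995-90891244, chr5:90903649-90903898 and chr3:142496684-142496933. Capitals mark matches on either strand to the kappaB motif (GGG, any 2 bases, TTTCC) and, in Gbp5, also to the interferon response motif (GAAA, any 2 bases, GAAA), which lies nearer the 5′ end.
Cxcl1: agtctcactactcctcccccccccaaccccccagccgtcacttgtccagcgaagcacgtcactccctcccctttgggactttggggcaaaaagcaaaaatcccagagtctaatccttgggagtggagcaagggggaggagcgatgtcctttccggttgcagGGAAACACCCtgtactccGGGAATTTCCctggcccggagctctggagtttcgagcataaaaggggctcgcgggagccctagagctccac
Cxcl2: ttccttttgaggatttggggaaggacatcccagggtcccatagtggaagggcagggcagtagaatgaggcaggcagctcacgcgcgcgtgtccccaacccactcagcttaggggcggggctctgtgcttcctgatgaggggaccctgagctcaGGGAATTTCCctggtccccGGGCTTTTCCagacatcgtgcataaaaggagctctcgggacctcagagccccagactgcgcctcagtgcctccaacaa
Gbp5: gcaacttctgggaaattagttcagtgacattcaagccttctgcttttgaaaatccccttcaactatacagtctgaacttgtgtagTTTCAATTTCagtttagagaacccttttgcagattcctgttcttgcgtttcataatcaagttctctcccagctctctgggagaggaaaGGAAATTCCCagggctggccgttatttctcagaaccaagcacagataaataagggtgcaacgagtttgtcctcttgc
Cxcl1 and Cxcl2 each held 2 kappaB matches within 100 bases of the start, and Gbp5 held 1 match to each motif. Over 32851 RefSeq promoters of the same length, 1.41% held the kappaB motif and 2.98% the interferon response motif. The matches overlap no match of the other motif and describe letters in the sequence, not binding. In GENCODE vM21, Cxcl1 lies at chr5:90891241-90893115 and Cxcl2 at chr5:90903871-90905938, both on the plus strand, and Gbp5 at chr3:142493978-142522344, plus strand; all 3 are protein coding. The RefSeq starts used for the promoters lie within these spans.

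Metallothionein 1 (Mt1), a zinc- and copper-binding protein, differed between control and all 3 treated libraries with UMIs in nearly every cell. It had 2079.6, 2484, 2002 and 990.4 CPM (combination, poly I:C, phenformin, control) in 62, 28, 39 and 41 cells, with no more than 10.7% of the UMIs in any 1 cell. The ratios over control were 2.10 (95% interval 1.95 to 2.26) for combination, 2.51 (95% interval 2.32 to 2.71) for poly I:C and 2.02 (95% interval 1.87 to 2.19) for phenformin. In basal keratin cells Mt1 had 1112, 1366, 1646 and 953 CPM. Among cells with at most 2 UMIs of 9 leukocyte genes the log2 ratios were 0.94, 0.87 and 0.87, just under 2-fold.

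With phenformin on both backgrounds, 2 of 2693 genes compared were higher in common, from 22 higher in phenformin over control and 21 higher in combination over poly I:C, and none were lower in common, from 15 and 24 lower. Slpi, a protease inhibitor of secretions, had 1051, 439.6, 789 and 318 CPM (combination, poly I:C, phenformin, control) with 73.2%, 52.1%, 75.1% and 71.4% of the UMIs in 1 cell of each library, and by means over cells its log2 ratio of combination over poly I:C was 0.59. Cyr61, a matrix-associated growth regulator, had 59.5, 5.88, 93.5 and 36.5 CPM in 19, 4, 11 and 8 cells, with ratios of 2.56 (95% interval 1.73 to 3.89) for phenformin over control and 10.1 (95% interval 4.18 to 31.9) for combination over poly I:C, the second not called without the 5 deepest cells of each library, among cells with no Krt5 or Krt14 or among cells with at most 2 leukocyte UMIs, at log2 ratios of 2.30, 2.72 and 1.88. Genes of the target of phenformin showed no call: nuclear complex I genes gave 0 higher and 0 lower of 37 compared, median 0.15 for phenformin over control and 0 higher and 0 lower of 36 compared, median 0.09 for combination over poly I:C, and mitochondrially encoded genes gave 0 higher and 0 lower of 13 compared, median -0.17 and 0 higher and 0 lower of 13 compared, median -0.17. The glycolysis genes gave 0 higher and 0 lower of 14 compared, median 0.18 for phenformin over control, and the integrated stress response genes gave 0 higher and 0 lower of 18 compared, median 0.08.

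The sterol synthesis genes Hmgcs1 and Sqle were lowest in the combination library. The cholesterol and fatty acid synthesis genes gave 0 higher and 4 lower of 11 compared, median -0.35 for combination over control and 0 higher and 1 lower of 11 compared, median -0.44 for combination over phenformin. Hmgcs1, a synthase of the sterol pathway, had 35.05, 61.1, 52.8 and 79.7 CPM (combination, poly I:C, phenformin, control) in 26, 16, 22 and 35 cells, a ratio of 0.44 (95% interval 0.303 to 0.636) for combination over control. Sqle, squalene epoxidase, had 23.8, 59.95, 58.5 and 48.7 CPM and a ratio of 0.407 (95% interval 0.265 to 0.615) for combination over phenformin. With cells thinned to 2000 UMIs the log2 ratio of Sqle was 1.04, but from sums of only 124000 and 76000 UMIs, in which Sqle had few. Among cells with no Krt5 or Krt14 the log2 ratio of Hmgcs1 for combination over control was -0.75 and not called. Basal keratin cells had 70.7, 63.4, 87.1 and 82.1 CPM of Hmgcs1.

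Mitosis genes had medians above 0 in each treated library over control, with 3 higher and 0 lower of 14 compared, median 0.42 for combination over control, 6 higher and 0 lower of 17 compared, median 0.63 for poly I:C over control and 2 higher and 0 lower of 16 compared, median 0.60 for phenformin over control. Ube2c, a mitotic ubiquitin-conjugating enzyme, had 278, 319.7, 185 and 102 CPM (combination, poly I:C, phenformin, control) in 25, 11, 17 and 13 cells, with log2 ratios of 0.22 for combination over control and 0.44 for poly I:C over control without the 5 deepest cells of each library. The list medians over control were not stable. Means over cells gave 0.29, 0.52 and 0.57 for combination, poly I:C and phenformin, and cells with no Krt5 or Krt14 gave 1.30, 1.38 and 1.57. Without the 5 deepest cells of each library they were -0.47, 0.09 and 0.01. The dividing subcluster 3 had the highest median depth, 34470 UMIs, so leaving out the deepest cells cannot separate depth from division. With at most 2 leukocyte UMIs the median of combination over control was also -0.47.

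Some milk and secretory genes varied by library, several of them through a few cells. Itln1 had 721, 39.97, 299 and 167 CPM (combination, poly I:C, phenformin, control) in 14, 5, 10 and 8 cells and Csn3 had 661, 175, 67.5 and 112 CPM in 15, 4, 8 and 4 cells, both highest in the combination library. Haptoglobin (Hp) had 190.4, 1.18, 26.8 and 9.96 CPM, with 11 cells of the combination library and 1 of the poly I:C library holding any. Osteopontin (Spp1) had 924, 4209, 1407 and 1389 CPM, of which 30.3%, 64.6%, 36.9% and 61.4% were in 1 cell of each library. Outside these genes, the oxidoreductase Ero1l, a hypoxia gene, had UMIs in most cells of each library. It had 168, 342, 160.2 and 108 CPM in 49, 22, 27 and 29 cells. Its ratio of poly I:C over control was 3.15 (95% interval 2.50 to 4.01), or 0.55 on the log2 scale among cells with at most 2 UMIs of 9 leukocyte genes. With so few cells, these levels describe the cells sampled from 1 tumour each.

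**Figure D5:**
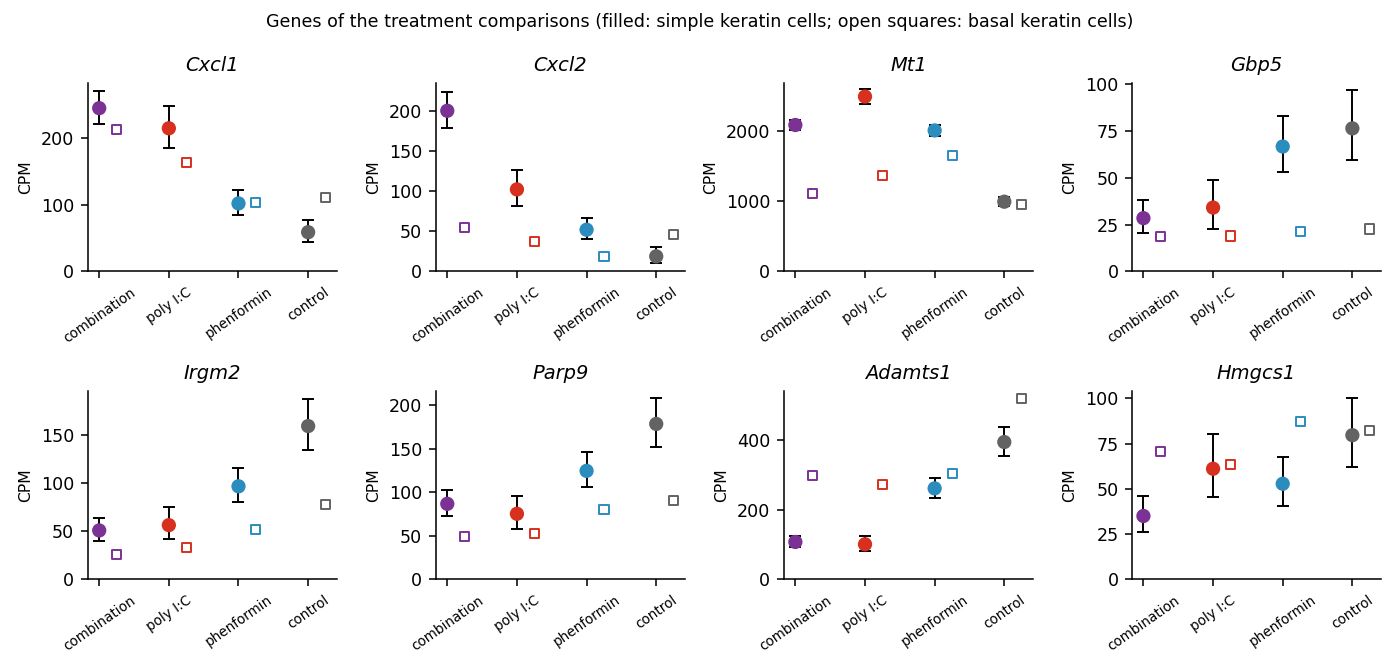
CPM of 8 genes in simple keratin cells (filled points, bars are exact Poisson 95% intervals) and basal keratin cells (open squares) of each library. Filled points of Cxcl1 and Cxcl2 are higher, and those of Gbp5, Irgm2, Parp9 and Adamts1 lower, in the combination and poly I:C libraries than in the phenformin and control libraries; Mt1 is lowest in the control library and Hmgcs1 in the combination library.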

How the data were processed

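Cells of 4 libraries, 1 per treatment, were measured by 10x Genomics 3' single-cell RNA sequencing. The deposited matrices hold raw UMI counts for 27998 genes, made with Cell Ranger 3.1.0 on builds given as mm10 and GRCm38, per the submitters' processing notes. Barcode filters before deposit were not stated, nor was strand handling. Barcodes numbered 9303, 7668, 6539 and 7309 in the combination, poly I:C, phenformin and control libraries, with 72704517, 77488625, 62744050 and 59071838 UMIs. Between 8 and 21 barcodes were shared by any pair of libraries.

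From the counts, filtered cells were chosen by the keratin rule and summed per library. Levels are CPM of those sums with exact Poisson 95% intervals, and ratios have exact conditional intervals; a pseudocount of 5 CPM entered the log2 ratios used for list medians. All intervals cover counting error only. Simple and basal sums were compared with edgeR 4.0.16 in R 4.3.3 (quasi-likelihood test, TMM, library as block, Benjamini-Hochberg adjustment), which was tested on simulated data: of 200 changed genes, 172 were among 175 called. The SE of a log2 difference was derived from that test, as its absolute value divided by the square root of the F statistic. Clustering used scanpy 1.11.5 at resolution 0.5. Of the listed symbols, 3 are not in the gene table and were not analysed here.

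The members, gene lists and named genes were chosen with earlier results of these data known. Genes were named by rank: those called on both backgrounds, the 10 highest and 10 lowest of each treatment comparison, the 12 highest and 12 lowest between simple and basal keratin cells, up to 4 members of a list, and the 6 leading genes of each subcluster. Other list members named for their role were chosen after their values were seen. Doublets were not removed. The sums of 1 library come from the same tumour, so the block pairs them; their deviations from the group means correlated at 0.233, 0.238, 0.0934 and 0.360. A few genes of these lists are not reported here.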

Additional observations from a re-analysis of the deposited data

Results flagged for a closer look

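For 6 genes, poly I:C or phenformin was followed by a higher level on one background and a lower level on the other in simple keratin cells. Each value is from 1 library, so the difference between backgrounds was not tested, and several of these genes had most of their UMIs in 1 cell.

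Vegfa, an angiogenic factor, had UMIs in the most cells of the 6. It had 56.2, 115, 132 and 39.8 CPM in the combination, poly I:C, phenformin and control libraries, so either agent alone was higher than control and the combination lower than either. The ratio was 0.427 for combination over phenformin and 2.89 for poly I:C over control, a log2 difference of -2.58; for phenformin, 0.488 over poly I:C and 3.31 over control gave -2.58 as well. Arg1, an arginine-degrading enzyme best known from myeloid cells, had 32.4, 81.1, 98.4 and 8.85 CPM. Its ratios were 0.329 for combination over phenformin and 9.16 for poly I:C over control, and 0.399 for combination over poly I:C and 11.1 for phenformin over control, a log2 difference of -4.10 in both cases. In the phenformin library 62.8% of its UMIs were in 1 cell, and among cells with at most 2 leukocyte UMIs the log2 ratio of phenformin over control was 1.53 and not called, against 2.90 over all simple keratin cells.

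The milk casein Csn2 had 11.2, 67.0, 60.2 and 18.8 CPM and a log2 difference of -3.60 for either agent, with 91.2% of its UMIs of the poly I:C library in 1 cell. Igfbp5, a binding protein of insulin-like growth factors, had 25.8, 181, 102 and 77.5 CPM and a log2 difference of -2.98 for poly I:C, with 78.6% of its UMIs of the poly I:C library in 1 cell. The lectin Itln1 had a log2 difference of 3.19 for poly I:C, with a ratio of 2.41 for combination over phenformin and 0.239 for poly I:C over control. A single cell held 65.7%, 67.6%, 52.2% and 39.7% of its UMIs in the combination, poly I:C, phenformin and control libraries. Wfdc12, a whey acidic protein family member, had 223, 14.1, 141 and 369 CPM and a log2 difference of 4.93 for phenformin, with a ratio of 15.8 for combination over poly I:C and 0.382 for phenformin over control. For Wfdc12 a single cell held 18.4%, 41.7%, 23.7% and 65.5% of the UMIs in the same order of libraries. Only 3 cells of the poly I:C library had any.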

How the results depend on the processing

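Of the genes named between treatments, 691 values kept their direction and call under the alternatives, 117 kept the direction only and 8 reversed. For simple over basal keratin cells the same counts were 676, 16 and 1. List medians had the opposite sign in 234 of 2100 cases, all but 1 with values under 0.5 in size in the reported analysis; the mitosis list in combination over control, 0.42, was -0.47 with at most 2 leukocyte UMIs and without the 5 deepest cells. Totals of called genes moved by over 1.5 times for combination over poly I:C (77) to 142 with means over cells, 24 with cells thinned to 2000 UMIs, 152 with no Krt5 or Krt14, 143 with at most 2 leukocyte UMIs and 432 with no minimum CPM. For combination over phenformin (58) the same 5 settings gave 153, 25, 127, 132 and 428. For combination over control (139), means over cells, thinning and no minimum gave 319, 39 and 689, and for poly I:C over control (262) 485, 31 and 944. For phenformin over control (72), the 5 settings gave 245, 14, 163, 151 and 505, and leaving out the 5 deepest cells of each library, chosen after seeing the data, gave 111. Thinning left 346 to 538 genes compared and no minimum CPM gave 8014 to 8866, against 2874 to 3155 in the reported analysis. Totals under these settings thus count over different numbers of genes. Shares of filtered cells with no Krt5 or Krt14 were 0.520%, 0.242%, 0.403% and 0.394% in the combination, poly I:C, phenformin and control libraries, and 0.520% in the combination library with at most 2 leukocyte UMIs. The cells of the full rule were 15.6%, 5.68%, 18.8% and 12.5% of simple plus basal keratin cells. Reversed log2 values were, with no Krt5 or Krt14, -0.71 for Inhba, -0.41 for Ptn and 0.54 for Fosb in poly I:C over control; with thinning, -0.81 for Basp1 and 1.04 for Sqle in combination over phenformin and 0.046 for Dtx3l in poly I:C over control; without the 5 deepest cells, -0.34 for Cxcl9 in poly I:C over control; with at most 2 leukocyte UMIs, -0.047 for Cdc20 and -0.0088 for the mitosis list in phenformin over control; and -0.47 for Mki67 in simple over basal keratin cells when a gap in Krt5 and Krt14 was left between them. The thinned values of these genes rest on few UMIs. The cause of the reversals was not tested. Simple against basal keratin cells gave 587 calls of 4118 genes tested after thinning, against 3431 of 10937 in the reported analysis. Calls numbered between 2580 and 3035 with 1 library left out, and 2405 without the replicate block. Subclusters numbered 2 at resolution 0.3 and 7 at 1.0. No paired analysis was possible between treatments because each has 1 library. Depth limits treatment comparisons to genes of at least 50 CPM and 30 UMIs.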

Other observations

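Other gene groups differed between simple and basal keratin cells. Of the S100 and annexin genes, 2 of 13 tested members were higher and 10 lower, with a median log2 difference of -0.87. S100a4, a calcium-binding protein of motile cells, was lower, at -4.43 ± 0.17, with 5.95, 16.5, 8.13 and 7.75 CPM in simple and 220.2, 208, 152 and 173 CPM in basal keratin cells of the combination, poly I:C, phenformin and control libraries (log2 difference ± SE, edgeR). The annexins Anxa8 and Anxa2 were lower, at -3.03 ± 0.14 and -1.07 ± 0.07, while Anxa1 was higher by 0.60 ± 0.05. Of the heat shock genes, 0 of 16 tested members were higher and 7 lower, with a median log2 difference of -0.20, with the small heat shock protein Cryab at -1.62 ± 0.09 and Hsp90aa1, a cytosolic chaperone, at -0.18 ± 0.06. Of the NF-kB feedback genes and targets, 9 of 26 tested members were higher and 4 lower, with a median log2 difference of -0.02: the chemokine Ccl20 was higher by 5.19 ± 0.89 and the NF-kB cofactor Bcl3 by 1.62 ± 0.26, and the receptor adaptor Traf1 was lower, at -2.90 ± 0.61.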
